A study of Homo sapiens with 12 samples.

Results

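The mitosis and G2/M genes are 57 genes whose products carry cells from the end of DNA replication through chromosome segregation and division. They were taken by name from a table of 46931 genes as a set defined by function, using only entries on the primary chromosomes. Each of the 57 names matched 1 entry. Of these, 56 were abundant enough to be tested among 18143 genes, and the exception was SKA1. The genes were followed through 9 roles, from the kinase that starts mitosis to the proteins that shape the chromosomes.

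Expression was measured by RNA sequencing in MCF10A, an established non-tumour line of human breast epithelium, in 4 groups of 3 libraries lettered a, b and c. Every culture received siRNA, a short double-stranded RNA that lowers the matching mRNA. The control siRNA was used at 22 nM. The other arm received 2 siRNA sets against YAP (gene YAP1) and TAZ (gene WWTR1), transcriptional coactivators restrained by the Hippo kinases, at 11 nM, and whether that is the amount of each set or the total is not stated. After 48 h the cells were given for 6 h either the solvent DMSO or 5 µM XMU-MP1, which inhibits the Hippo kinases MST1 and MST2. The groups are called siC_DMSO, siC_XMU, siYT_DMSO and siYT_XMU, where siC is the control siRNA and siYT the siRNA against YAP and TAZ, here also called the knockdown. All 4 groups come from 1 wild-type line kept in medium with insulin, hydrocortisone and epidermal growth factor, all were transfected, and no untransfected cells were compared.

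In cycling cells, transcription of the G2/M genes is low after division and peaks as cells approach mitosis. The kinase CDK1, bound to cyclin A or cyclin B, drives entry into mitosis, the kinases PLK1 and the Aurora kinases build the spindle, the checkpoint holds cells until every kinetochore is attached, and the anaphase-promoting complex (APC/C) then releases the sister chromatids. Many of these genes share a promoter element called the cell cycle homology region, through which the DREAM complex represses them in resting cells and the MYBL2-MuvB complex with FOXM1 activates them before mitosis. YAP and TAZ bind DNA through TEAD factors and are known to promote proliferation of epithelial cells. Bulk RNA cannot tell fewer cells in G2 and mitosis apart from less of these RNAs in each such cell.

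Promoter sequences are shown first because this element is the one that links many G2/M genes to these regulators. The RefSeq promoters of GRCh38.p14, each running from 250 bases before to 50 bases after the first listed start, were available for 51 of the 57 genes. UBE2C, CDCA2, TPX2, BIRC5, AURKA and TTK had no entry. The 250 bases before the start are printed 5′ to 3′ for 2 genes with the element in its common place, 1 with a pair of copies, 1 with the element on the opposite strand and 1 without it. Capitals mark each match to TTTGAA or TTCGAA, the letters searched for the cell cycle homology region on both strands, so that TTTGAA on the opposite strand reads TTCAAA.
CCNB2 (cyclin B2), chr15:59104896-59105145, plus strand: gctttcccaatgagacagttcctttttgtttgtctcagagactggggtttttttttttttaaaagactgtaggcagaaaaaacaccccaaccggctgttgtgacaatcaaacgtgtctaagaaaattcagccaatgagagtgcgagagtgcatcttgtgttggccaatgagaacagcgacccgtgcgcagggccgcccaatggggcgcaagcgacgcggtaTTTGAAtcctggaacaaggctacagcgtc
PLK1 (polo-like kinase 1), chr16:23678639-23678888, plus strand: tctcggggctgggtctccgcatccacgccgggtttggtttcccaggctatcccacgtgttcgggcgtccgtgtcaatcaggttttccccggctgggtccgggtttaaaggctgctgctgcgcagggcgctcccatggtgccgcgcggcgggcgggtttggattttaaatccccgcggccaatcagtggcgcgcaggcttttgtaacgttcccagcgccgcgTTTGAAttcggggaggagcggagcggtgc
HMMR (a spindle-binding hyaluronan receptor), chr5:163460382-163460631, plus strand: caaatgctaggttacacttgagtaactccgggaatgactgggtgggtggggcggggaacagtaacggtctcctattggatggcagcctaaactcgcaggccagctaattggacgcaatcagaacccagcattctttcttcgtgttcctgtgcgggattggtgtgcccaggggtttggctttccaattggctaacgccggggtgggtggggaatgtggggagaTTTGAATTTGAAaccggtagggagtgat
KIF11 (the kinesin that separates the spindle poles), chr10:92592880-92593129, plus strand: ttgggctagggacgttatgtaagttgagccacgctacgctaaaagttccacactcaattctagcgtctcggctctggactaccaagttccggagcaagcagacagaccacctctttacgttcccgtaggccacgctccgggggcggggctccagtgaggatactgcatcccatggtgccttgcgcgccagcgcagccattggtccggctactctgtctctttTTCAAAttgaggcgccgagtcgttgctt
KIF20A (a kinesin of the midzone), chr5:138178862-138179111, plus strand: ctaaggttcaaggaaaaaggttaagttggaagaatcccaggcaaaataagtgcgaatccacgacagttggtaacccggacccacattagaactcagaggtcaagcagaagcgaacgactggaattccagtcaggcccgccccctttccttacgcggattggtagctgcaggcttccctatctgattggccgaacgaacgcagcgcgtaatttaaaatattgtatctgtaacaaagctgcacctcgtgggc

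The match began 29 bases before the start in both CCNB2 and PLK1. In HMMR matches began 28 and 22 bases before the start, and in KIF11 the opposite-strand match began 28 bases before it. KIF20A had no match in its whole window, which says only that these letters are not there.

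Across the 51 promoters, 39 (76.5%) held TTTGAA or TTCGAA on either strand, against 16.6% of 27305 promoters of the same length. In the shorter window from 100 bases before to 50 after the start the shares were 70.6% and 7.43%. The matches lay close to the start. Of 50 matches in these promoters, 11 began in the bases from -50 to -26, 11 from -25 to -1 and 10 from 0 to 24, counted from the start as 0. CCAAT, the NF-Y motif that often accompanies the element, was found on either strand in 37 of the 51 promoters (72.5%) and in 35.7% of all promoters. CATTCC, the core letters bound by TEAD factors, was found in 5 (9.80%) against 14.0% of all promoters. A match is a string of letters, not a bound site.

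**Figure D1:**
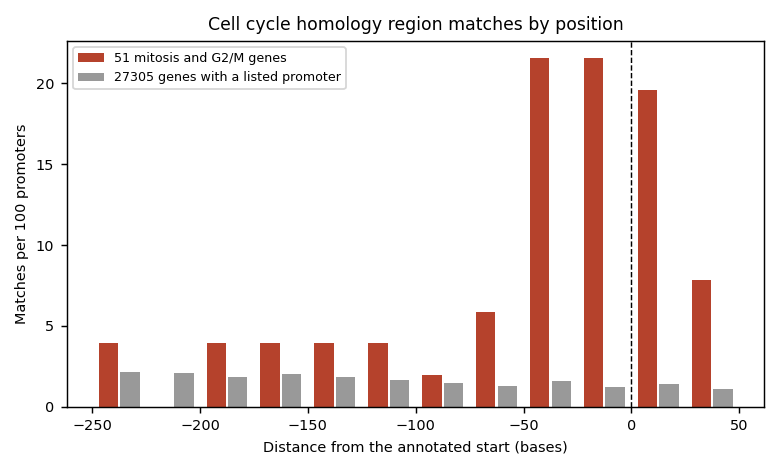
Matches to TTTGAA or TTCGAA on either strand per 100 promoters, in bins of 25 bases by distance from the annotated start (dashed line), for the 51 mitosis and G2/M genes with a promoter entry (red) and for all 27305 promoters (grey). The red bars reach 21.6 in the 2 bins just before the start and 19.6 in the bin just after it, while the grey bars lie between 1.08 and 2.12.

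Total counts ran from 8243351 to 67953633 per library, and the smallest was siYT_XMU c, in which ribosomal RNA genes took 35.0% of counts. Their share ran from 1.02 to 2.52% in the libraries with control siRNA and from 1.86 to 8.35% in the remaining 5 knockdown libraries, the highest of these in siYT_DMSO a. Levels below are CPM, counts scaled to library size by TMM (a method that assumes most genes are unchanged). The siRNA targets fell as their labels state. In siC_DMSO, YAP1 ranged over 193 to 223 CPM and WWTR1 over 24 to 38.2 CPM, and in siYT_DMSO they ranged over 7.84 to 12.6 and 3.66 to 4.47 CPM. A list of 10 basal mammary markers summed to between 5747 and 16251 CPM in every library, none at 0 throughout a group. That sum hides opposite moves. KRT5 averaged 4620 CPM in siC_DMSO and 1536 in siYT_DMSO, while KRT17 averaged 690 and 5681. TP63 averaged 26.5 CPM in siC_DMSO and 3.14 in siC_XMU. In siYT_XMU c markers of other cells were higher than elsewhere, with LYZ at 58.6 CPM, COL1A2 at 33.4 and the leukocyte marker PTPRC at 5.59, and 8 of the 57 genes had a count of 0 there (TTK, AURKB, NDC80, NUF2, SKA1, ESPL1, KIFC1 and DLGAP5). Where a gene had no count, the floor is 3 counts, or 0.622 CPM in that library and far less in the deeper ones, which covers counting error only.

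Compared per transcript length, on the FPKM scale, CDC20 had the highest mean level in siC_DMSO at 234 ± 32.8 (SD, n = 3). PTTG1 followed at 207 ± 4.21, CCNB1 at 157 ± 7.35, UBE2C at 151 ± 15.5 and PLK1 at 141 ± 13. The last 3 do not differ beyond their spread. KIF15 was the lowest of the tested genes at 3.68 ± 0.288 FPKM. The median over the tested genes was 31.4 FPKM in siC_DMSO, 35.3 in siC_XMU, 1.33 in siYT_DMSO and 2.14 in siYT_XMU.

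Summed over the 57 genes, the level was 7221, 7817 and 7902 CPM in siC_DMSO a, b and c, and 9015, 9233 and 10259 CPM in siC_XMU. It was 843, 564 and 586 CPM in siYT_DMSO, and 1193, 585 and 690 CPM in siYT_XMU. All 6 knockdown libraries therefore lay far below all 6 control libraries, and the siC_XMU libraries lay above those of siC_DMSO. The order of the 2 knockdown groups depended on the scaling. The TMM factors were 0.950, 1.08 and 1.04 in siYT_DMSO a, b and c and 0.920, 0.851 and 0.586 in siYT_XMU. As a share of all counts the 57 genes took 0.0801, 0.0606 and 0.0607% in siYT_DMSO. In siYT_XMU they took 0.110, 0.0497 and 0.0404%. The spread was wider after the knockdown. The median coefficient of variation over the genes was 8.56% in siC_DMSO and 11.0% in siC_XMU but 46.8% in siYT_DMSO and 59.7% in siYT_XMU. Library a was the highest of its group for 45 of the 56 tested genes in siYT_DMSO, where it also had the lowest depth and the highest ribosomal RNA share, and for 54 of 56 in siYT_XMU. In siC_XMU library c was highest for 47.

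**Figure D2:**
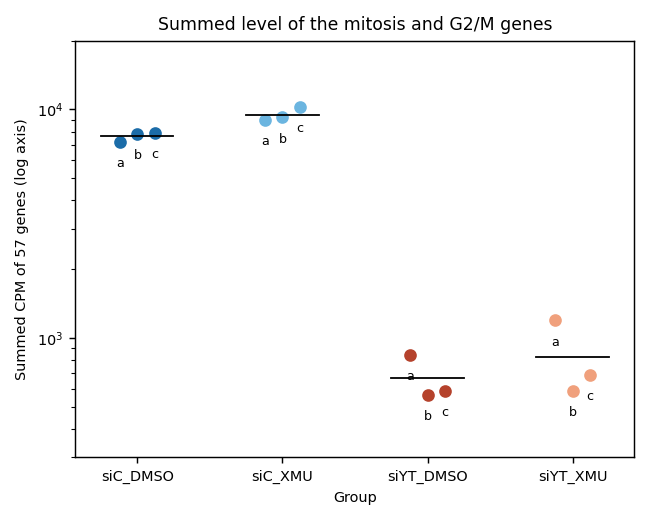
Summed CPM of the 57 mitosis and G2/M genes in each library, on a log axis, with 1 point per library, its letter beside it and a black line at the group mean of 3 libraries. The control libraries sit between 7221 and 10259 CPM and the knockdown libraries between 564 and 1193 CPM.

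**Figure D3:**
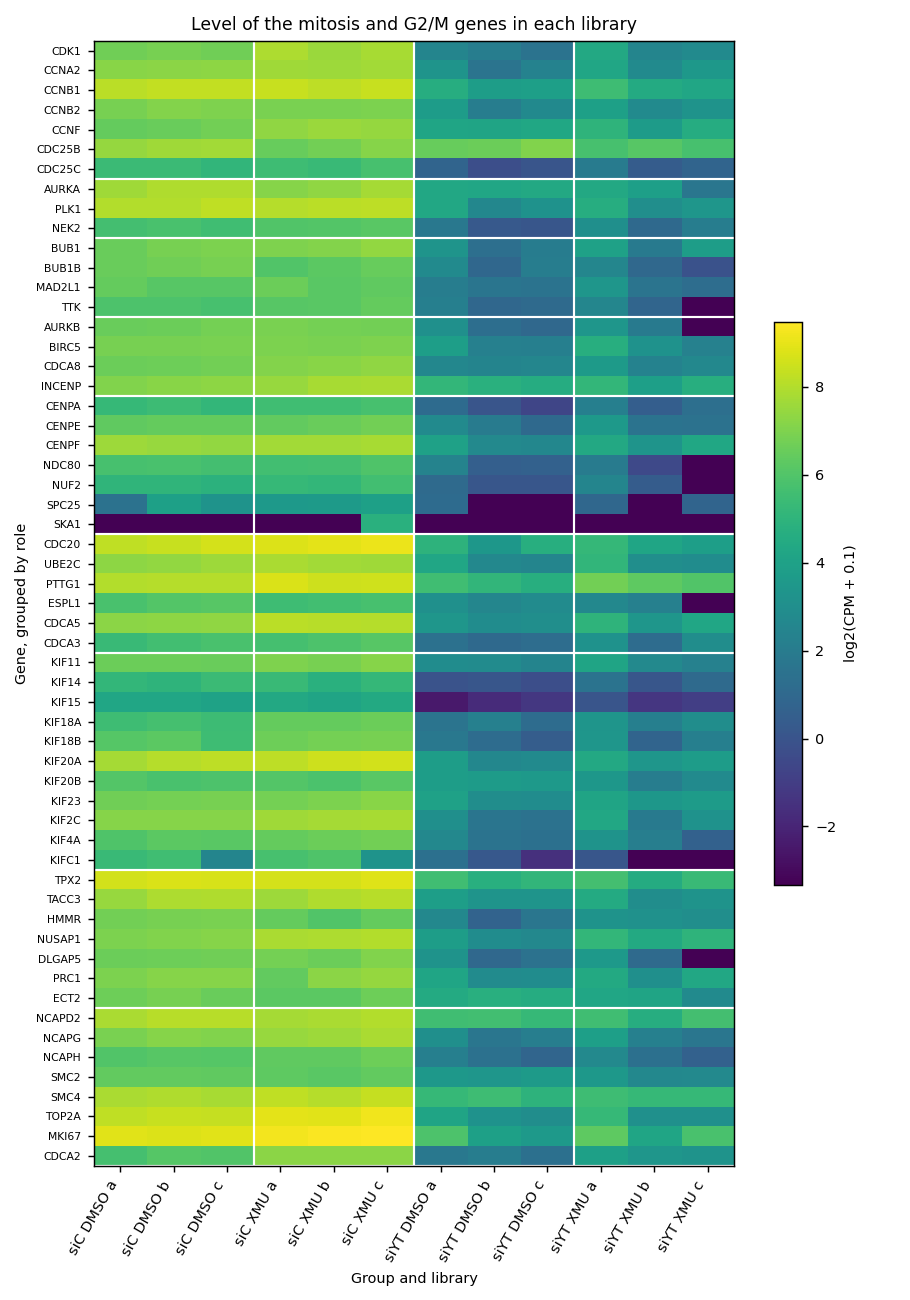
Level of each of the 57 genes (one per line, grouped by role between white lines) in the 12 libraries, coloured by log2(CPM + 0.1). The 6 control columns on the left are brighter than the 6 knockdown columns on the right for nearly every gene. CDC25B stays bright throughout, SKA1 is dark except in siC_XMU c, and KIFC1 is dim in library c of both control groups.

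The first comparison, siYT_DMSO against siC_DMSO, asks how the cells' mitotic transcripts stood after YAP and TAZ were lowered. Of the 56 tested genes, 55 fell, 0 rose and only SPC25 did not pass (edgeR's quasi-likelihood test, two-sided, Benjamini-Hochberg adjusted p under 0.05 over all 18143 genes). Over all genes 16.0% were called lower and 16.1% higher. The median log2 fold change of the 56 genes was -4.25, a level of 5.26% of the control, beside a median of 0.02 over all genes. For 35 of the 56 the fall was at least 16-fold, for 47 at least 8-fold and for 55 at least 4-fold. All 3 knockdown libraries lay below all 3 control libraries for each of the 56 genes, which held for 27.9% of all genes tested, and 26.2% of all genes showed the opposite order.

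CDK1 (chr10:60778331-60794852 in GRCh38.p13), the kinase that triggers mitosis, measured 104, 114 and 103 CPM in siC_DMSO against 5.51, 4.18 and 2.83 in siYT_DMSO. The groups were far apart, with a log2 fold change of -4.69 (SE 0.47, adjusted p = 2.2e-05). Its partner cyclin B1, CCNB1 (chr5:69167010-69178245), was at 289, 320 and 312 CPM and then at 25.4, 13.8 and 14.7, a change of -4.10 (SE 0.34). CDC25C, the phosphatase that switches CDK1 on at mitotic entry, fell most in this role. It went from 42.2, 41.9 and 34 CPM to 1.67, 0.754 and 0.943, a change of -5.17 (SE 0.45).

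CDC25B (chr20:3786772-3806121), a phosphatase that acts on CDK1 complexes earlier in G2, stood at the other end. It measured 177, 200 and 210 CPM in siC_DMSO against 89.3, 97.9 and 132 CPM in siYT_DMSO. These groups do not overlap, but the change of -0.88 (SE 0.21, adjusted p = 0.0063) was the smallest of the 56. The next smallest fall was that of ECT2 at -2.09. CCNA2 (cyclin A2) at -4.72, CCNB2 at -4.00 and CCNF (cyclin F) at -2.37 made up the rest of this role, in which 7 of 7 fell with a median of -4.10.

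All 3 kinases of centrosome and spindle fell, with a median of -4.53. PLK1 measured 261, 256 and 303 CPM in siC_DMSO against 20.5, 6.05 and 9.17 in siYT_DMSO, a change of -4.53 (SE 0.50). Library a was the highest of the knockdown libraries and still lay more than 10-fold below the controls. NEK2, which frees the centrosomes from each other, fell by 4.85 on the log2 scale (SE 0.57), and AURKA (Aurora A), which matures them, by 3.54 (SE 0.45).

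The 4 spindle checkpoint genes fell to nearly the same extent, with log2 fold changes from -4.60 for BUB1B to -4.38 for BUB1 and a median of -4.45. BUB1, which recruits the checkpoint proteins to kinetochores, was at 95.0, 114 and 122 CPM and then at 9.68, 2.42 and 4.07. The chromosomal passenger complex was less even. AURKB (Aurora B), its kinase, went from 93.3, 95.4 and 110 CPM to 8.51, 2.34 and 1.90, a change of -4.58 (SE 0.82). INCENP, the scaffold of the same complex, went from 130, 148 and 159 CPM to 35.4, 27.5 and 24.1, a change of -2.33 (SE 0.27). So the scaffold kept a larger part of its level than the kinase in every library, although the difference between the 2 genes was not tested. BIRC5 (survivin) at -3.93 and CDCA8 (borealin) at -4.18 lay between them.

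Among the centromere and kinetochore genes 5 of the 6 tested fell, with a median of -4.36. CENPA, the histone H3 variant that marks the centromere, measured 38.7, 43.5 and 35.4 CPM in siC_DMSO against 2.13, 0.928 and 0.529 in siYT_DMSO, a change of -5.09 (SE 0.55). SPC25, a subunit of the NDC80 complex that grips microtubules, was at 2.77, 15.3 and 9.34 CPM and then at 2.13, 0 and 0. Its groups do not overlap, but siC_DMSO a was close to siYT_DMSO a, and the change of -3.81 (SE 1.69) did not pass (adjusted p = 0.11). SKA1, of a complex that follows shrinking microtubule ends, was at 0 in 11 libraries and at 28.2 CPM in siC_XMU c, from 1859 counts. That is a lone library, and SKA1 enters no comparison.

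The genes of the APC/C and of sister chromatid cohesion all fell, 6 of 6, with a median of -4.04. CDC20, the activator of the APC/C, went from 307, 334 and 403 CPM to 30.4, 11.0 and 25.9, a change of -3.96 (SE 0.42). PTTG1 (securin), which holds separase inactive until anaphase, fell least in this role. It was at 256, 268 and 268 CPM and then at 46.1, 33.7 and 25.6, a change of -2.91 (SE 0.24). ESPL1, separase itself, changed by -3.18 and CDCA3 by -4.40.

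All 11 mitotic kinesins fell, with the lowest median of the 9 roles at -4.66. KIF15, a motor that helps keep the spindle poles apart, had the largest change of the 56 genes. It measured 19.0, 19.3 and 16.7 CPM in siC_DMSO against 0.0834, 0.193 and 0.314 in siYT_DMSO, from 2, 10 and 19 counts in the knockdown libraries. The log2 fold change was -6.43 (SE 0.51, adjusted p = 5.2e-06). KIF11, the main pole-separating motor, changed by -3.85 (SE 0.39). KIF20B, a kinesin of cytokinesis, changed least at -2.24 (SE 0.29), from 65.8, 56.4 and 60.1 CPM to 14.1, 13.1 and 11.6. KIFC1, which focuses the spindle poles, was at 40.9 and 46.1 CPM in siC_DMSO a and b but at 5.61 in c, and at 2.5, 1.06 and 0.248 in siYT_DMSO, with a change of -4.66 (SE 1.25, adjusted p = 0.013).

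The 7 genes of spindle assembly and the midzone fell with a median of -3.87. HMMR fell most, from 109, 115 and 118 CPM to 6.21, 1.60 and 3.13, a change of -4.99 (SE 0.41). ECT2, the exchange factor that activates RhoA for the cleavage furrow, fell least, from 102, 116 and 94.1 CPM to 22.6, 26.5 and 24.3. TPX2, which activates Aurora A on the spindle, changed by -3.53 (SE 0.29).

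All 8 chromosome structure genes fell, with a median of -4.12. TOP2A, the topoisomerase that untangles sister chromatids, went from 301, 334 and 323 CPM to 17.9, 9.01 and 7.51, a change of -4.81 (SE 0.58). MKI67 (Ki-67), which coats mitotic chromosomes and is widely used as a proliferation marker, went from 486, 454 and 483 CPM to 59.2, 15.2 and 12.3, a change of -4.04 (SE 0.63). The knockdown libraries of MKI67 differed nearly 5-fold among themselves, and all lay below the controls. Condensin, the complex that compacts chromosomes, was uneven. Its core ATPases SMC4 and SMC2, which both forms of condensin share, changed by -2.64 (SE 0.18) and -2.88 (SE 0.22) and its subunit NCAPD2 by -2.55 (SE 0.24), while the subunits NCAPG and NCAPH fell by 4.66 and 4.57 on the log2 scale.

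The promoter letters can be set beside these falls as a description. The 38 tested genes with TTTGAA or TTCGAA around the first listed start had a median log2 fold change of -4.22, ranging from -6.43 to -2.09. The 12 without it there had a median of -4.58, ranging from -5.17 to -0.88. With any listed start counted, 41 of the 51 genes had a match instead of 39, so these 12 include genes with a match at another start. CDC25B, the gene with the smallest change, had neither this element nor CCAAT at its first listed start. CDC25C, with one of the largest, had neither at its first listed start as well, which does not show that the gene lacks them.

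The second comparison makes the same contrast in cells given XMU-MP1, siYT_XMU against siC_XMU, and shares no library with the first. Again 55 of the 56 genes fell, 0 rose and SPC25 did not pass (edgeR, adjusted p = 0.12), where 18.6% of all genes were called lower and 17.7% higher. The median log2 fold change was -3.74, a level of 7.46% of siC_XMU, beside 0.04 over all genes. It was -4.58 without siYT_XMU a and -4.40 on the log2(FPKM + 0.1) scale. For 23 genes the fall was at least 16-fold and for 50 at least 8-fold. None of the 56 overlapped between groups, which held in the lower direction for 25.9% and in the higher for 19.6% of all genes. For 55 of the 56 genes, all 6 knockdown libraries of both comparisons lay below all 6 control libraries, and the exception was CDC25B.

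CDK1 measured 239, 188 and 221 CPM in siC_XMU against 21.3, 5.65 and 6.84 in siYT_XMU, a change of -4.22 (SE 0.46, adjusted p = 4.1e-05). CCNB1 was at 338, 296 and 341 CPM and then at 44.8, 22.9 and 18.6, a change of -3.48 (SE 0.33). Library a was the highest knockdown library for both. CDC25B was again the least changed, at 89.8, 107 and 140 CPM against 54.5, 71.8 and 53.7, a change of -0.90 (SE 0.21, adjusted p = 0.0052).

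At the other end, KIFC1 had the largest fitted change, -6.71 (SE 1.45, adjusted p = 0.0037), from 53.3, 61.9 and 9.48 CPM to 0.968, 0 and 0. Its size rests on libraries with no counts, and the call did not pass with limma-voom (adjusted p = 0.074). KIF15 went from 21.0, 17.6 and 21.8 CPM to 0.939, 0.309 and 0.414, a change of -5.12 (SE 0.48). Of the other leading genes, PLK1 changed by -4.27, AURKB by -4.42, BUB1 by -3.74, CENPA by -4.13, CDC20 by -4.39, KIF11 by -3.70, TOP2A by -4.80 and MKI67 by -3.69. The smallest falls after CDC25B were those of PTTG1 at -2.21, ECT2 at -2.51 and NCAPD2 at -2.53.

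Set side by side, the 56 changes in the 2 comparisons had a Pearson correlation of 0.769 and a Spearman correlation of 0.777 across genes, which are not independent replicates and share each library's depth. The change was smaller in XMU-MP1 for 40 of the 56, but without siYT_XMU a the order of the medians turned, with -4.58 in XMU-MP1 and -4.25 in DMSO. The median of the difference, 0.26 beside 0.07 over all genes, also turned to -0.17 with log2(FPKM + 0.1) and -0.21 with log2(FPKM + 1). On those scales the median over all genes was itself -0.26 and -0.11. INCENP, CCNF and KIF20B were among those with the larger change in XMU-MP1, at -3.05, -2.94 and -3.17 against -2.33, -2.37 and -2.24 in DMSO. Whether these pairs differ is the interaction given below, in which none passed.

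**Figure D4:**
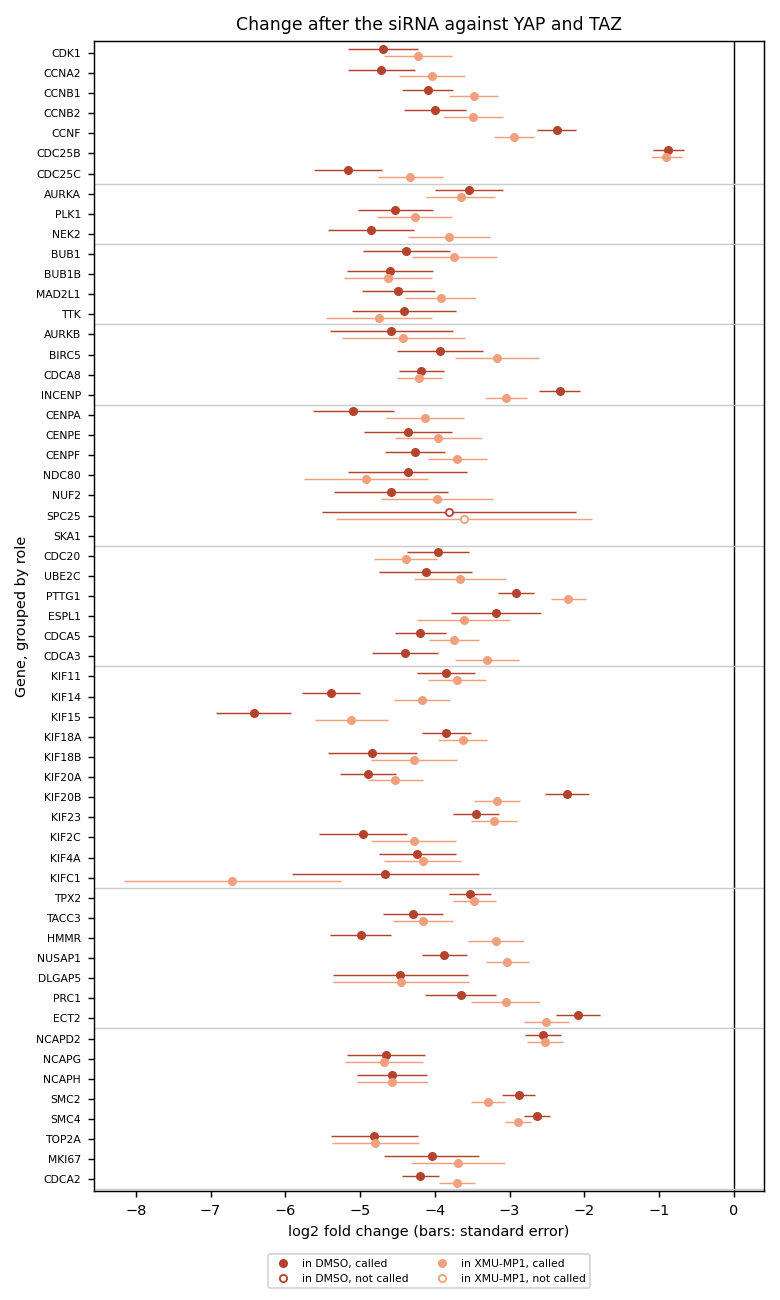
Log2 fold change after the siRNA against YAP and TAZ, with its standard error, for each of the 56 tested genes by role, in DMSO (dark) and in XMU-MP1 (light). Filled points passed the edgeR test. All points lie left of 0, most between -5 and -2, with CDC25B nearest to 0 and KIF15 and KIFC1 farthest, and SPC25 is open in both.

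Markers of other cell types moved with the knockdown too. The 7 luminal markers summed to between 3048 and 4162 CPM in the control libraries and between 551 and 1254 CPM after the knockdown. The 6 leukocyte markers summed to between 20.1 and 61.3 CPM in the control libraries and between 69.8 and 200 CPM after the knockdown, the highest in siYT_XMU c. The 6 fibroblast markers summed to between 11.3 and 27.6 CPM and between 22.8 and 135 CPM. Their part in the fall of the mitotic genes was not tested. Without siYT_XMU c the median fall in XMU-MP1 was -3.73. This does not test the part of the markers, since siYT_XMU b, still included, held LYZ at 5.03 CPM and COL1A2 at 2.84. The comparison in DMSO does not use siYT_XMU c. The share of ribosomal RNA also moved with the knockdown. With those genes left out of the library totals the median fall was -4.25 in DMSO and -3.74 in XMU-MP1.

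The third comparison, siC_XMU against siC_DMSO, asks what inhibiting MST1 and MST2 did while YAP and TAZ were present. Of the 56 genes 1 rose, CDCA2, and 1 fell, CDC25B, where 4.0% of all genes were called higher and 5.26% lower. The median log2 fold change was 0.33, beside -0.02 over all genes, and 46 of the 56 values were positive. All siC_XMU libraries lay above all siC_DMSO libraries for 27 of the genes, against 18.6% of all genes tested, and below for 4, against 22.1%.

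CDCA2, which brings a phosphatase to the chromosomes as cells leave mitosis, measured 52.5, 67.6 and 64.4 CPM in siC_DMSO against 154, 153 and 154 in siC_XMU. The groups are well apart, with a log2 fold change of 1.32 (SE 0.22, adjusted p = 0.0039). CDC25B was at 177, 200 and 210 CPM in DMSO and at 89.8, 107 and 140 in XMU-MP1, with a change of -0.80 (SE 0.21, adjusted p = 0.032). The CDC25B call was lost when either siC_DMSO library a, b or c or siC_XMU library a or b was left out, with adjusted p from 0.067 to 0.13 by edgeR.

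Several genes did not pass although their groups do not overlap. CDK1 went from 104, 114 and 103 CPM to 239, 188 and 221, a value of 1.01 (SE 0.40, adjusted p = 0.15). The next 3 lay just outside the threshold. CCNF went from 87.1, 95.1 and 107 CPM to 166, 185 and 175, a value of 0.86 (SE 0.25, adjusted p = 0.051). NUSAP1, which bundles spindle microtubules, went from 125, 133 and 141 CPM to 231, 240 and 255, a value of 0.87 (SE 0.27, adjusted p = 0.066). KIF18A, a kinesin that dampens chromosome oscillations, went from 45.7, 52.0 and 44.3 CPM to 88.4, 88.9 and 95.5, a value of 0.94 (SE 0.29, adjusted p = 0.068).

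How many genes passed differed between fits. With only the 6 control siRNA libraries in the edgeR fit, which also changes the genes tested and the scaling, 22 rose and 2 fell (CDC25B and HMMR), against 12.1% and 13.1% of all genes in that fit. Those that rose then included CDK1, CCNF, CDCA5, NUSAP1, KIF18A, TOP2A and MKI67. With limma-voom 8 rose, against 7.76% of all genes.

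The fourth comparison, siYT_XMU against siYT_DMSO, makes the same contrast after the knockdown. Of the 56 genes 8 rose and 1 fell, where 4.19% of all genes were called higher and 7.92% lower. The median log2 fold change was 0.61, beside 0.02 over all genes, and 45 values were positive. The groups did not overlap upward for 6 genes, against 10.5% of all genes, and downward for 3, against 16.7%. These values are small steps on low levels, since every gene but CDC25B remained below all control libraries.

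CDCA2 had the largest rise, from 3.34, 4.22 and 2.53 CPM in siYT_DMSO to 15.2, 10.6 and 9.32 in siYT_XMU, a change of 1.82 (SE 0.23, adjusted p = 0.00057). NUSAP1 rose from 13.8, 7.39 and 6.15 CPM to 36.0, 21.6 and 31.5, a change of 1.71 (SE 0.28, adjusted p = 0.0025). PTTG1 rose from 46.1, 33.7 and 25.6 CPM to 107, 78.1 and 64.2, a change of 1.25 (SE 0.23, adjusted p = 0.0050). The groups were separate for all 3 genes.

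HMMR rose from 6.21, 1.60 and 3.13 CPM to 9.42, 8.68 and 7.87, a change of 1.28 (SE 0.36, adjusted p = 0.040). With control siRNA its value was -0.52 (adjusted p = 0.40), from 109, 115 and 118 CPM to 86.4, 64.5 and 86.8. CDCA5 (sororin), which protects cohesion until anaphase, rose from 10.3, 7.50 and 7.89 CPM to 31.9, 10.5 and 19.3, a change of 1.27 (SE 0.31, adjusted p = 0.020). CDK1 rose from 5.51, 4.18 and 2.83 CPM to 21.3, 5.65 and 6.84, a change of 1.48 (SE 0.42, adjusted p = 0.041). In CDK1 siYT_XMU a stood far above the other libraries, and siYT_XMU b lay just above the highest siYT_DMSO library.

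CDCA3 at 1.45 and KIF18A at 1.16 also rose, but their groups overlapped. Of 23 alternative fits and leave-outs, the call was kept in 7 for CDCA3, 9 for CDK1, 10 for HMMR, 15 for KIF18A, 16 for CDCA5, 20 for PTTG1, 22 for CDCA2 and 23 for NUSAP1. Without siYT_XMU a the value was 0.57 for CDK1 (adjusted p = 0.20 by edgeR), 0.96 for CDCA3 (0.18), 0.75 for CDCA5 (0.071), 0.82 for KIF18A (0.12) and 1.21 for HMMR (0.093).

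CDC25B again fell, from 89.3, 97.9 and 132 CPM to 54.5, 71.8 and 53.7, a change of -0.82 (SE 0.21, adjusted p = 0.024). It was thus the lone gene of the 56 called lower with XMU-MP1 in both siRNA arms and also after the knockdown in both treatments. By value alone, 10 of the 56 were below 0 with XMU-MP1 and control siRNA and 11 after the knockdown. The CDC25B call here was lost without siYT_DMSO c, siYT_XMU a or siYT_XMU c (adjusted p 0.11, 0.074 and 0.051 by edgeR).

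The positive median after the knockdown did not hold under every setting. It was -0.017 on the log2(FPKM + 0.1) scale, where the median of all genes was -0.36. Without siYT_XMU a the median of the 56 genes was -0.13 and 24 of 56 values were positive. Then 3 genes rose (PTTG1, NUSAP1 and CDCA2) and 2 fell (KIF20B and SMC2), against 3.29% and 6.9% of all genes. Without siYT_DMSO a, also the highest of its group, the median was 1.08 and 13 rose, against 2.5%. Without siYT_XMU b 16 rose, against 3.92%, and the median was 0.93. Without siYT_XMU c, the shallow library, 7 rose and 0 fell, against 6.65% and 8.37%, and the median was 0.81. Leaving out siYT_DMSO b or c left 4 or 3 genes that rose, against 2.3% and 1.94%.

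The 2 XMU-MP1 comparisons share no library. Their values had the same sign for 49 of the 56 genes, with a Pearson correlation of 0.552 and a Spearman correlation of 0.498 across genes. CDCA2 and CDC25B passed in both, in the same direction.

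**Figure D5:**
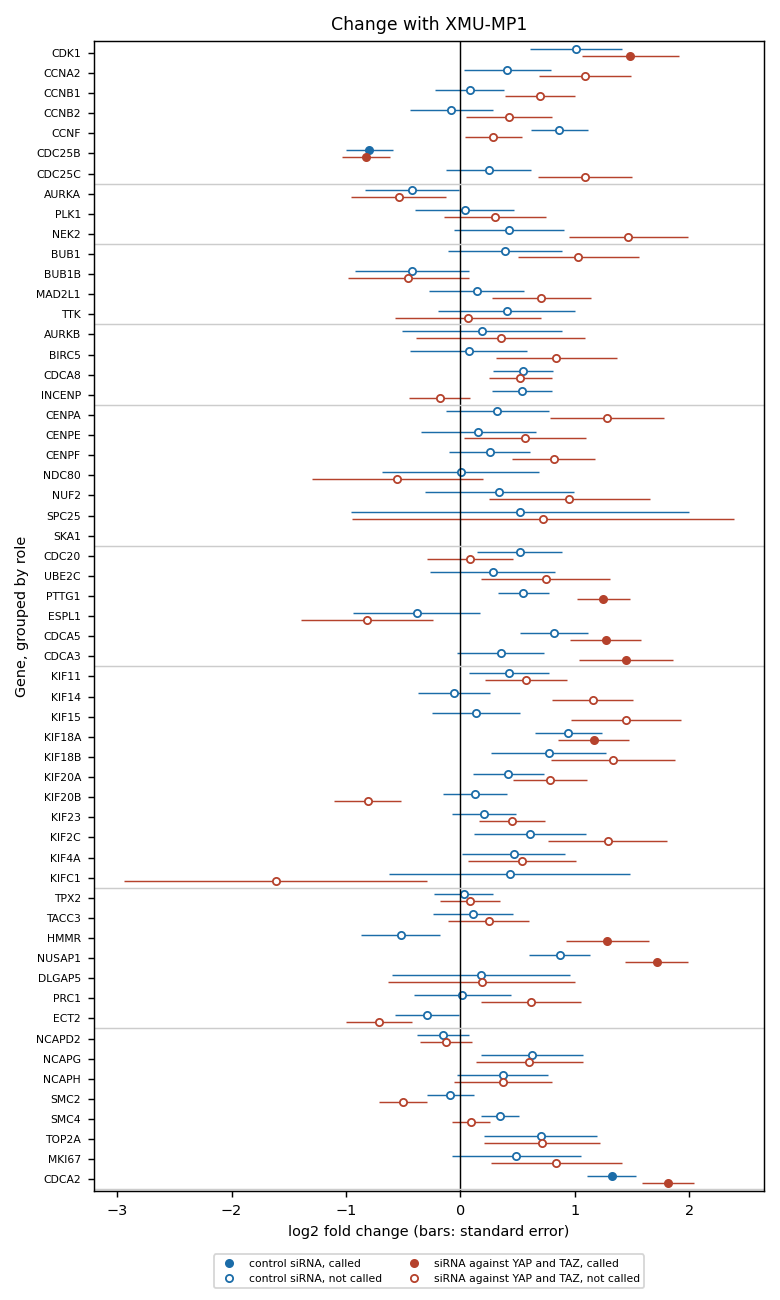
Log2 fold change with XMU-MP1, with its standard error, for each of the 56 tested genes by role, with control siRNA (blue) and after the siRNA against YAP and TAZ (red). Filled points passed the edgeR test: CDCA2 and CDC25B in blue, and CDK1, CDC25B, PTTG1, CDCA5, CDCA3, KIF18A, HMMR, NUSAP1 and CDCA2 in red. Most values lie between 0 and 1.5, and HMMR lies on opposite sides of 0 in the 2 arms.

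Whether the XMU-MP1 effect differed between the siRNA arms was tested as an interaction, the effect after the knockdown minus that with control siRNA. None of the 56 genes passed by edgeR in either direction, where 1.73% of all genes passed as negative and 0.86% as positive, and 5 of the 56 had an unadjusted p under 0.05 (HMMR, KIF14, NUSAP1, PTTG1 and KIF20B). DESeq2 and limma-voom each called 1 gene positive, HMMR in both, against 4.71% and 2.33% of all genes. Both limma fits on FPKM called 0. The value nearest to passing was that of HMMR at 1.80 (SE 0.50, adjusted p = 0.078), followed in size by KIF15 at 1.31 (SE 0.61, adjusted p = 0.28) and KIF14 at 1.22 (SE 0.47, adjusted p = 0.19). On the negative side were KIFC1 at -2.04 (SE 1.69, adjusted p = 0.58) and KIF20B at -0.94 (SE 0.40, adjusted p = 0.24). With siYT_DMSO a left out, HMMR and NUSAP1 passed as positive, against 0.663% of all genes. With siYT_XMU b left out, CDCA3 and KIF14 did, against 0.743%. With siYT_XMU a left out KIF20B passed as negative, against 2.44%.

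Genes of the same processes outside the 57 gave a measure of how far the pattern extended. Of a further 102 genes of kinetochore, checkpoint, APC/C, cohesin, spindle and G2/M control, 101 were tested (not ARHGAP11A). After the knockdown in DMSO 71 fell and 2 rose, with a median log2 fold change of -2.12, and in XMU-MP1 83 fell and 1 rose (ANAPC13), with a median of -2.22. Over all genes 16.0% were called lower and 16.1% higher in DMSO, and 18.6% and 17.7% in XMU-MP1. The largest falls in DMSO were those of HJURP, the chaperone that loads CENPA, at -4.92 (SE 0.60), ANLN, the anillin of the contractile ring, at -4.86 (SE 0.58), and CEP55, which marks the midbody, at -4.79 (SE 0.61). The 2 that rose were CENPT at 0.77 and PPP2R2A at 0.68. In XMU-MP1 the largest falls were those of CKAP2L at -4.83, ANLN at -4.71 and SHCBP1 at -4.64.

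Of 16 further APC/C genes, 3 fell in DMSO (ANAPC1, FBXO5 and UBE2S at -1.33, -3.79 and -3.11) with a median of -0.19, a share near the 16.0% of all genes called lower, and 7 fell and 1 rose in XMU-MP1, where 18.6% of all genes were called lower, with a median of -0.42. Of the other lists, 22 of 25 further kinetochore and centromere genes fell in DMSO, with a median of -2.57, and 20 of 23 further spindle and cytokinesis genes, with a median of -2.30. The difference between the lists was not tested.

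With XMU-MP1 and control siRNA, 4 of the 101 rose and 3 fell, no more often than among all genes (4.0% higher and 5.26% lower). HAUS3, of the augmin complex that branches spindle microtubules, rose by 1.58 (SE 0.25), CKAP2 by 0.95 and SGO2 (shugoshin) by 0.83, while MAD1L1 changed by -0.97, STAG2 by -0.82 and PDS5A by -0.49. After the knockdown 6 rose and 12 fell, beside 4.19% and 7.92% of all genes. UBE2S, which extends ubiquitin chains for the APC/C, was at 37.7, 38.0 and 38.0 CPM in siYT_DMSO and at 150, 310 and 99.7 in siYT_XMU, a change of 2.31 (SE 0.32, adjusted p = 0.0010). CENPL rose by 2.04 and FBXO5 (EMI1), an inhibitor of the APC/C, by 1.80. WEE1, the kinase that holds CDK1 inactive, changed by -2.48 (SE 0.27), KNSTRN by -1.40 and MAD1L1 by -1.31.

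A list of 18 regulators held G2/M transcription factors, DREAM subunits and the inhibitors of cyclin-dependent kinases CDKN1A, CDKN1B and CDKN1C. In DMSO 11 fell and 3 rose with a median of -1.03, where 16.0% of all genes were called lower and 16.1% higher. In XMU-MP1 14 fell and 2 rose with a median of -1.11, where 18.6% were called lower and 17.7% higher. FOXM1 measured 174, 220 and 215 CPM in siC_DMSO against 14.5, 6.5 and 7.48 in siYT_DMSO, a change of -4.43 (SE 0.46), and changed by -3.00 (SE 0.43) in XMU-MP1. MYBL2 was at 399, 383 and 431 CPM and then at 40.5, 10.2 and 9.78, a change of -4.33 (SE 0.56), and changed by -3.44 (SE 0.54) in XMU-MP1. LIN9, a MuvB subunit, changed by -2.22 (SE 0.58) and -3.24 (SE 0.61). These 3 fell in both treatments. Of the other MuvB subunits listed, LIN52 changed by -1.77 and -1.84. RBBP4 averaged 128 CPM in siC_DMSO and 74.1 in siYT_DMSO, and 97.9 in siC_XMU and 70.8 in siYT_XMU. LIN37 and LIN54 did not pass in DMSO, where their values were positive (adjusted p = 0.074 and 0.50 by edgeR), and changed by -1.13 and -1.08 in XMU-MP1.

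CDKN1A (p21), an inhibitor of cyclin-dependent kinases already counted in that list, moved the other way from FOXM1, MYBL2 and LIN9. It measured 274, 326 and 392 CPM in siC_DMSO against 1441, 1927 and 1596 in siYT_DMSO, a change of 2.32 (SE 0.30, adjusted p = 0.00012). It was also higher in siC_XMU, at 1236, 1025 and 577 CPM (1.52, SE 0.29, adjusted p = 0.0079 by edgeR). The highest levels were in siYT_XMU, at 3228, 3785 and 2299 CPM. Any part of CDKN1A in the changes of the mitosis and G2/M genes was not tested. The G1/S and DNA replication list, 28 genes, fell with the mitotic genes after the knockdown. In DMSO 27 fell with a median of -3.72, where 16.0% of all genes were called lower. In XMU-MP1 28 fell with a median of -3.33, where 18.6% were called lower. XMU-MP1 with control siRNA left a median of 0.03. There 1 was higher (PCNA) and 1 lower (MCM3), against 4.0% and 5.26% of all genes. CCNE1 (cyclin E1) was the gene not called in DMSO, at -0.31.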

How the data were processed

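RNA sequencing libraries from 12 samples in 4 groups were analysed from 1 deposited table. Per the file headers, the authors deposited whole-number counts and FPKM for 46931 genes in every library, 24 value columns, all of them used. Per the submitters' processing notes the build was GRCh38.p13 and the tools included HISAT2, StringTie, cutadapt, FastQC and edgeR, with no versions, and how reads were assigned is not given in the sources used here. Deposited FPKM of genes with a count of 0 are listed at 1e-04.

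Counts were fitted with edgeR 4.0.16 in R 4.3.3 (filterByExpr, TMM, quasi-likelihood, 4 group means, 8 residual degrees of freedom, common dispersion 0.232). The standard error was taken from the log2 fold change and its F statistic, as the size of the one over the square root of the other. Tests are two-sided, called at an adjusted p (Benjamini-Hochberg) under 0.05 over 18143 genes. Nothing says that libraries a, b and c came from separate cultures, so p-values measure only the spread between these samples. No batch is labelled.

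The members, lists and tests were chosen with earlier results of these data known. Named genes are the largest and smallest change of each role in each knockdown comparison, 10 leading genes, every called gene with XMU-MP1, genes not called, and, outside the 57, the 3 largest called changes in each direction and the regulators. Other genes named, such as those just outside a threshold, were chosen after their values were seen. Alternatives were DESeq2 1.42.0, limma 3.58.1 (voom, and trend on log2(FPKM + 0.1) and log2(FPKM + 1)), other scalings and filters, a replicate block, fits of only the compared groups, and leaving out each library.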

Additional observations from a re-analysis of the deposited data

Results flagged for a closer look

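None of the 57 genes is listed here. Of the further 101 mitotic genes tested, 5 had an XMU-MP1 effect that differed between the siRNA arms by the edgeR interaction test, all with a more negative effect after the knockdown, where 1.73% of all genes passed as negative and 0.86% as positive. With control siRNA WEE1, the kinase that holds CDK1 inactive, had levels of 60.9, 68.1 and 63.0 CPM in DMSO and of 70.9, 71.3 and 72.3 CPM in XMU-MP1, but it went from 55.4, 89.2 and 113 CPM in siYT_DMSO to 16.9, 18.5 and 9.94 in siYT_XMU, an interaction of -2.64 (SE 0.37, adjusted p = 0.0071). FZR1 (CDH1), an activator of the APC/C after anaphase, was at 57.6, 66.5 and 80.0 CPM, then 88.4, 109 and 104, and after the knockdown 79.5, 91.4 and 77.4, then 42.9, 39.4 and 24.9, an interaction of -1.76 (SE 0.29, adjusted p = 0.015). The interaction was -1.17 for WAPL (adjusted p = 0.029), which releases cohesin, -1.11 for NUMA1 (adjusted p = 0.032), a spindle pole protein, and -1.07 for KNSTRN (adjusted p = 0.038), a kinetochore protein.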

How the results depend on the processing

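Under all 23 alternatives the counts of genes that fell after the knockdown stayed within 1.5 times the values given, and leaving out libraries gave 54 to 56 in DMSO and 55 to 56 in XMU-MP1. Over all genes the share called lower then ran from 11.6 to 18.8% in DMSO and from 13.4 to 18.7% in XMU-MP1. The median fold change ranged from -4.80 to -4.08 in DMSO and from -4.58 to -3.58 in XMU-MP1 over the libraries left out. The XMU-MP1 counts moved more. After the knockdown, DESeq2 called 15 higher, against 9.31% of all genes, and limma-voom 4, against 5.57%. The fit of only the compared groups called 2 higher, against 2.01%, and 0 lower, against 3.4%. With log2(FPKM + 0.1) 2 were higher, against 3.53%, and 2 lower, against 14.7%. With log2(FPKM + 1) 1 was higher, against 3.42%, and 2 lower, against 15.4%. Leaving out a library gave 3 to 16 higher and 0 to 2 lower, against 1.94 to 6.65% and 4.09 to 8.37% of all genes. With control siRNA, DESeq2 called 4 higher, against 7.19% of all genes, and limma-voom 8, against 7.76%. The fit of only the compared groups called 22 higher, against 12.1%, and 2 lower, against 13.1%. A filter of CPM of at least 1 in 3 libraries gave 2 higher, against 6.01%. With log2(FPKM + 1) 2 were higher, against 2.4%, and 0 lower, against 6.63%. With log2(FPKM + 0.1) 0 were lower, against 4.26%. Leaving out a library gave 1 to 5 higher and 0 to 1 lower, against 1.34 to 5.9% and 1.9 to 7.95% of all genes.

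For the interaction DESeq2 called 1 positive gene, against 4.71% of all genes, and limma-voom 1, against 2.33%. Leaving out a library gave 0 to 2 positive and 0 to 1 negative, against 0.165 to 2.07% and 0.28 to 3.16%. The interaction median of 0.26 turned to -0.17 with log2(FPKM + 0.1), -0.21 with log2(FPKM + 1) and -0.44 without siYT_XMU a. Leaving out libraries, it ranged from -0.44 to 0.73. The median with XMU-MP1 after the knockdown turned to -0.017 with log2(FPKM + 0.1), a scale on which the median of all genes was -0.36, and to -0.13 without siYT_XMU a, with a range of -0.13 to 1.08 over the libraries left out. The cause was not tested. Of the genes called there, NUSAP1 passed under every alternative.

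Same-lettered libraries were weakly correlated in their deviations (2 of 18 correlations over 0.1, from -0.02 to 0.17), while for 11 of 12 the closest match bore the same letter, a hint from the data and not the design. What the letters mark is not stated. With the replicate block 55 fell in each knockdown comparison, against 16.0% of all genes in DMSO and 18.6% in XMU-MP1. With XMU-MP1 after the knockdown 6 rose and 1 fell, against 3.85% and 7.78%. With XMU-MP1 and control siRNA 1 rose and 1 fell, against 3.94% and 5.53%, and 0 passed in the interaction. The element was found in 41 of 51 promoters when any listed start counted and in 37 with TTTGAA alone, both chosen after seeing the data. The depth of siYT_XMU c limits genes under 0.622 CPM there.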
